A study of Mus musculus with 3072 samples.

Results

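Activated plaque-associated microglia of APP/PS1 mice were taken from single-cell read counts as the cells with reads of at least 3 of 10 activation genes (Cst7, Clec7a, Itgax, Axl, Lpl, Ank, Csf1, Igf1, Spp1 and Fabp5). By this rule 70 cortical and 33 hippocampal cells were activated of 584 APP/PS1 cells in all, which is 22.5% of the cortical and 12.1% of the hippocampal cells. They were set against the comparison cells of the same tissue, which had reads of 0 of the 10 genes, 40.8% of the cells in cortex (20, 30, 39 and 38 on the 4 plates) and 170 cells or 62.3% in hippocampus. The remaining cells had reads of 1 or 2 of them, 83 and 31 in cortex and 56 and 14 in hippocampus. The cells were thus chosen by the counts of the 10 genes, so those counts are given as a description, and so is every difference between the activated and the comparison cells.

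Microglia are the resident macrophages of the brain. In mice that form amyloid plaques, those that gather around plaques are known to lower the genes of resting microglia and to raise genes of phagocytosis, lysosomes and lipid handling, a shift known to depend in large part on the receptor Trem2. The activated state is widely known as disease-associated microglia. The lipid carrier Apoe is among the genes that mark it.

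The cells came from male APP/PS1 mice of the parental line, which carry the transgenes APPswe and PS1dE9 and were 17 months old, and living CD11b+ DAPI- cells were sorted singly into 96-well plates. Both tissues were spread over 4 titled plates each and shared the same 2 sequencing lanes. Both transgenes are driven by prion protein gene promoter elements. The labels name no animals, so each tissue counts as 1 sample, no test between cells is possible, and plates and lanes show technical spread alone. Counts were also read in cortex and hippocampus of APP/PS1-ApoeKO mice, which also lack Apoe, and in cortex of C57BL/6 and C57BL/6-ApoeKO mice, all 18 months old, where only the share of cells passing the rule was used (1713 cells in all). The distance of a cell from a plaque was not measured, so the name of these cells rests on their genes.

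Activated cells held a median of 636742 reads in cortex (212064 to 981052) and 665475 in hippocampus (137041 to 943547), against 611164 and 573782 in the comparison cells. The median number of genes read was 2356 and 2209 in activated cells and 2157 and 2119.5 in comparison cells, so activated cells were slightly deeper, and the part of depth in the results was checked only by thinning. All 9 microglia markers, among them Aif1, Csf1r, C1qa, P2ry12, Tmem119 and Cx3cr1, were read in the activated cells. Their summed level was 47418 RPM (reads per 1000000 counted reads of the class) in cortex (44172 to 49944 over the plates) and 49470 RPM in hippocampus (40638 to 57838), against 55795 (52777 to 58184) and 58678 RPM (53467 to 61664) in comparison cells.

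Markers of other cells were few. Of 7 border macrophage markers 2 were read, at 5.47 RPM in cortical (0 to 19.4 over the plates) and 7.26 RPM in hippocampal activated cells (0 to 18.6), and Mrc1, Cd163, Lyve1 and Pf4 were at 0. The comparison cells held 0.119 (0 to 0.454) and 2.78 RPM (0.107 to 8.40) of them. Monocyte markers summed to 3.86 RPM in cortical activated cells, with 1 of 5 read, and all 5 were at 0 in the hippocampal ones. Of 5 neutrophil markers only Csf3r was detected, at 579 RPM in cortical and 578 RPM in hippocampal activated cells (list sums of 604 and 627 RPM in comparison cells), and S100a8 and S100a9 were at 0. Endothelial markers summed to 37.97 RPM in cortical activated cells (0.396 to 87.1) against 2.45 RPM in comparison cells (0.0907 to 6.12), with Cldn5 and Pecam1 at 0, and their part in the results was not tested. In 1 hippocampal activated cell at least 2 endothelial markers had reads, and in no activated cell were there reads of 2 markers of any of the other 8 types examined.

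Activated cells made up 22.5% of cortical cells (95% Clopper-Pearson interval 18.0 to 27.6%) and 12.1% of hippocampal cells (8.47 to 16.6%). The shares on the 4 cortical plates were 25% (19 of 76 cells), 20.8% (16 of 77), 23.8% (19 of 80) and 20.5% (16 of 78). On the hippocampal plates they were 9.23% (6 of 65), 14.1% (9 of 64), 17.9% (12 of 67) and 7.79% (6 of 77). Each cortical plate lay above each hippocampal plate, and the lanes gave 22.9% and 22.2% in cortex and 11.6% and 12.5% in hippocampus. With each cell thinned to 100000 reads the shares were 21.5% and 11.4%. Intervals cover counting error alone, and since animals are not named, the spread between mice is not in them.

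The same rule was met by fewer cells of the other groups. It took 4 cells or 2.37% of APP/PS1-ApoeKO cortex (0.649 to 5.95%), 12 or 3.74% of APP/PS1-ApoeKO hippocampus (1.95 to 6.44%), 3 or 0.920% of C57BL/6 cortex (0.190 to 2.67%) and 7 or 2.24% of C57BL/6-ApoeKO cortex (0.904 to 4.55%). These groups were 1 month older and came from other lanes, so what genotype, age and lane each add cannot be told apart.

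The number of activation genes read fell off differently in the tissues. In cortex, 28 cells had reads of 3 or 4 of the genes, 27 of 5 or 6 and 15 of 7 to 10. In hippocampus the numbers were 23, 6 and 4. Cells with at least 5 of the genes were 13.5% of all cortical and 3.66% of all hippocampal cells. Just outside the rule, 31 cortical and 14 hippocampal cells had reads of exactly 2 of the genes, with a median sum over the 10 genes of 939 and 730 RPM. Just inside it, cells with exactly 3 of the genes held 1226 and 1540 RPM.

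**Figure D1:**
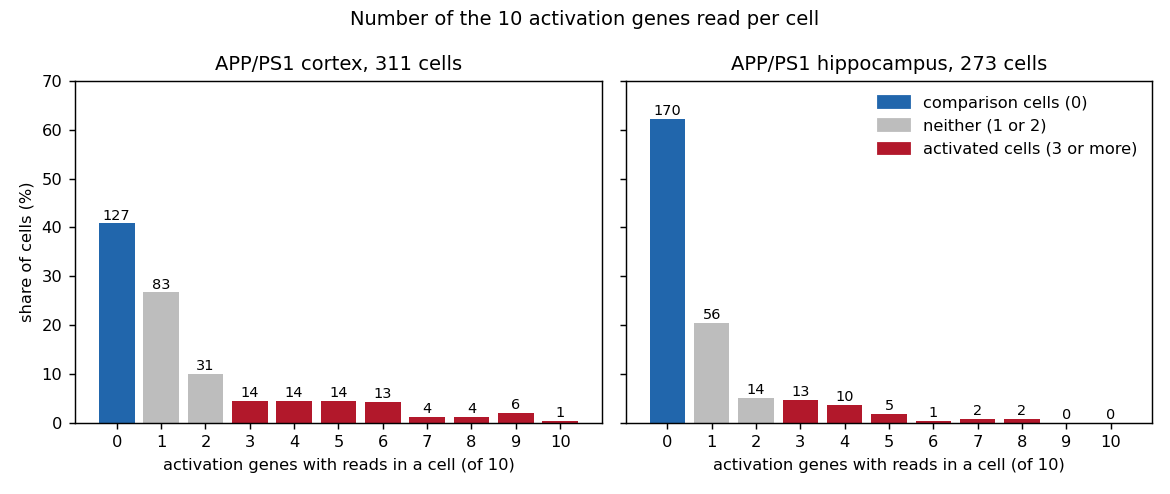
Share of cells (%) by how many of the 10 activation genes had reads in the cell, in APP/PS1 cortex and hippocampus, with the number of cells above each bar. The comparison cells stand at 0 and the activated cells from 3 upward, with 70 activated cells in cortex and 33 in hippocampus.

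The regulatory sequence before 4 of the genes that chose the cells is shown, since they are the ones most often read in the cortical activated cells. Each is the 250 bases before the RefSeq transcript start on GRCm38.p6, read 5′ to 3′ on the strand of the gene. Capitals mark GAGGAA, the core of the site of the macrophage factor PU.1, CACGTG, the E-box core bound by MiT/TFE factors that control lysosomal genes, or TGACTCA, an AP-1 site, on either strand. Cst7 is on the plus strand at chr2:150570165-150570414, Clec7a on the minus strand at chr6:129472780-129473029, Ank on the plus strand at chr15:27466427-27466676 and Itgax on the plus strand at chr7:128129300-128129549.
Cst7: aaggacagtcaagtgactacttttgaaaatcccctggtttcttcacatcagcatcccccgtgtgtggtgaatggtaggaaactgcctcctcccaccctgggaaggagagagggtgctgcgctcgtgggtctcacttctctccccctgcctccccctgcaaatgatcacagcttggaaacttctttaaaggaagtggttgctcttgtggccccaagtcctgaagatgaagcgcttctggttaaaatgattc
Clec7a: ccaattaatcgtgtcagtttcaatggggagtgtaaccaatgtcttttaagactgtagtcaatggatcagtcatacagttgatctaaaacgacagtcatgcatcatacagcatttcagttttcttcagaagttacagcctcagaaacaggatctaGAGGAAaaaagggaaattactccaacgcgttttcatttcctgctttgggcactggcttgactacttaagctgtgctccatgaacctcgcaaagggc
Ank: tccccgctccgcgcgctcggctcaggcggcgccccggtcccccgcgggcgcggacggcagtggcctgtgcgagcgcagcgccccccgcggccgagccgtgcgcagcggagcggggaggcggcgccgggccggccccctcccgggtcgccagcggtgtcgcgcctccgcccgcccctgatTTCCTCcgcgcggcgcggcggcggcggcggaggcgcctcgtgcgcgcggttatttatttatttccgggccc
Itgax: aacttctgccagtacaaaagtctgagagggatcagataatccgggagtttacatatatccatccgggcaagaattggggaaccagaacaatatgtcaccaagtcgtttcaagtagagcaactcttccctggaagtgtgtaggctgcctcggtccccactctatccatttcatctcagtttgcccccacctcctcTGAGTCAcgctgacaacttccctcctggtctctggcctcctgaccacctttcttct

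Of these windows, those of Clec7a and Ank hold GAGGAA, that of Itgax holds TGACTCA, and that of Cst7 holds none of the 3 motifs. RefSeq windows matched 8 of the 10 activation genes, with 10 windows in all. GAGGAA was in 6 of the 10 windows and in 23.3% of the 32851 windows of all genes in the table. Among the 6, the Clec7a windows that start at chr6:129472780 and chr6:129472786 overlap and hold the same site. TGACTCA was in 1 of the 10 (4.46% of all windows) and CACGTG in 0 of the 10 (6.02% of all). A match is a stretch of letters and says nothing of whether a factor binds there.

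Among the activation genes, the lysosomal cystatin Cst7, an inhibitor of cysteine proteases (chr2:150570415-150578944, GENCODE), was read in 57 of 70 cortical and 24 of 33 hippocampal activated cells. Its summed level on the 4 plates was 1637, 1505, 974 and 1980 RPM in cortex and 849, 1147, 598 and 877 RPM in hippocampus. The cortical plates were the higher ones, although the lowest cortical plate fell within the hippocampal range. Clec7a, the beta-glucan receptor Dectin-1 (chr6:129461591-129472779, listed by GENCODE as a polymorphic pseudogene), was also read in 57 and 24 cells. It stood at 812, 869, 566 and 725 RPM on the cortical plates and at 223.8, 235.4, 657 and 477 RPM on the hippocampal plates. Here too the ranges overlapped, by 1 plate on each side.

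The other receptors were read in fewer cells. Itgax, the integrin subunit CD11c, was read in 46 cortical and 18 hippocampal activated cells at a summed 474 and 278.7 RPM, and its cortical plates ranged from 215.3 to 743 RPM. Axl, a receptor tyrosine kinase for the clearance of dying cells, was read in 44 and 23 cells at 457 and 340.5 RPM. Ank, a membrane protein that exports pyrophosphate and ATP, was read in 53 and 17 cells at 769 and 363.9 RPM. Its cortical plates held 893, 1014, 531 and 714 RPM, all above the hippocampal ones at 31.5, 436, 387 and 405 RPM.

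The lipid genes Lpl, a lipase that frees fatty acids from lipoproteins, and Fabp5, a fatty acid carrier, were read in 31 and 27 cortical and in 11 and 3 hippocampal activated cells. Among the secreted factors, Csf1, the ligand of the receptor that microglia need to survive, was read in 26 cortical and 7 hippocampal cells, the growth factor Igf1 in 21 and 12, and the matrix phosphoprotein Spp1 (osteopontin) in 8 and 1. All 8 cortical cells with Spp1 also had reads of Cst7, and 25 of the 27 with Fabp5 did. The most frequent pairs in cortex were Clec7a with Ank in 48 cells and Cst7 with Clec7a in 45. Fabp5 was the gene whose share differed most between the tissues, 38.6% (27.2 to 51%) of cortical and 9.09% (1.92 to 24.3%) of hippocampal activated cells.

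**Figure D2:**
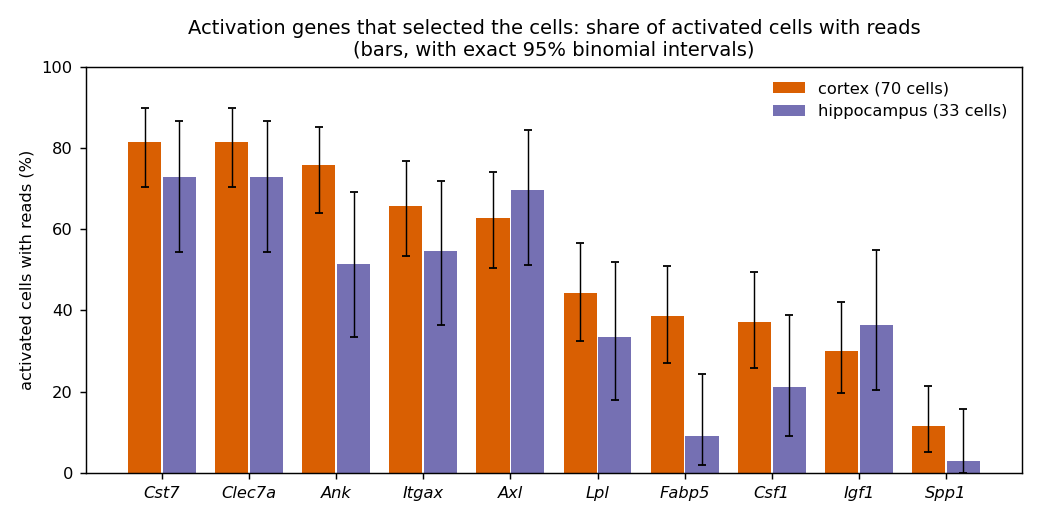
Share of activated cells (%) with reads of each of the 10 genes that selected them, by tissue, with exact 95% binomial intervals. Cst7 and Clec7a were read in 57 of 70 cortical cells, and Spp1 in 8.

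To compare the activated with the comparison cells across all genes, reads were summed over the cells of a class. A gene entered where at least 20% of the cells of 1 class had reads of it and 1 class, not necessarily the same, reached 20 RPM. It was called at least 2-fold changed where the log2 ratio (0.5 RPM added) passed 1 in the sum and in each lane with at least 10 cells of both classes. Leaving out the 10 activation genes, 3.26% of 4014 genes considered in cortex were called higher in activated cells and 5.41% lower. In hippocampus, 3.10% of 3840 were called higher and 11.4% lower. The median log2 ratio of all genes considered was -0.13 in cortex and -0.27 in hippocampus, so that called changes stand against a slightly lowered background. With a median-of-ratios scaling, which sets that median near 0, 4.31% were higher and 4.21% lower in cortex and 5.55% and 7.21% in hippocampus. The share of calls that were higher was 37.6% in cortex and 21.4% in hippocampus, and with that scaling 50.6% and 43.5%. Leaving out 1 plate at a time gave 3.78 to 8.95% higher and 14.2 to 21.1% lower in hippocampus. Without plate 1, 2 or 3 a hippocampal lane kept fewer than 10 activated cells and no longer limited the calls, and without plate 4, which gave the lowest of these shares, both lanes still did.

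The calls overlapped between the tissues. Of the genes called higher, 47 were called in both, which is 35.9% of the cortical and 39.5% of the hippocampal calls. Of those called lower, 59 were called in both, 27.2% of the cortical and 13.5% of the hippocampal calls. Over all genes considered, 3.26% in cortex and 3.10% in hippocampus were called higher, and 5.41% and 11.4% lower. Of the 3440 genes considered in both tissues, 2370 had a log2 ratio of the same sign. No reference for that number was computed, and the median of all genes lay below 0 in both tissues (-0.13 and -0.27). The activated cells were chosen with the same 10 genes in both tissues, and the animals may be the same.

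**Figure D3:**
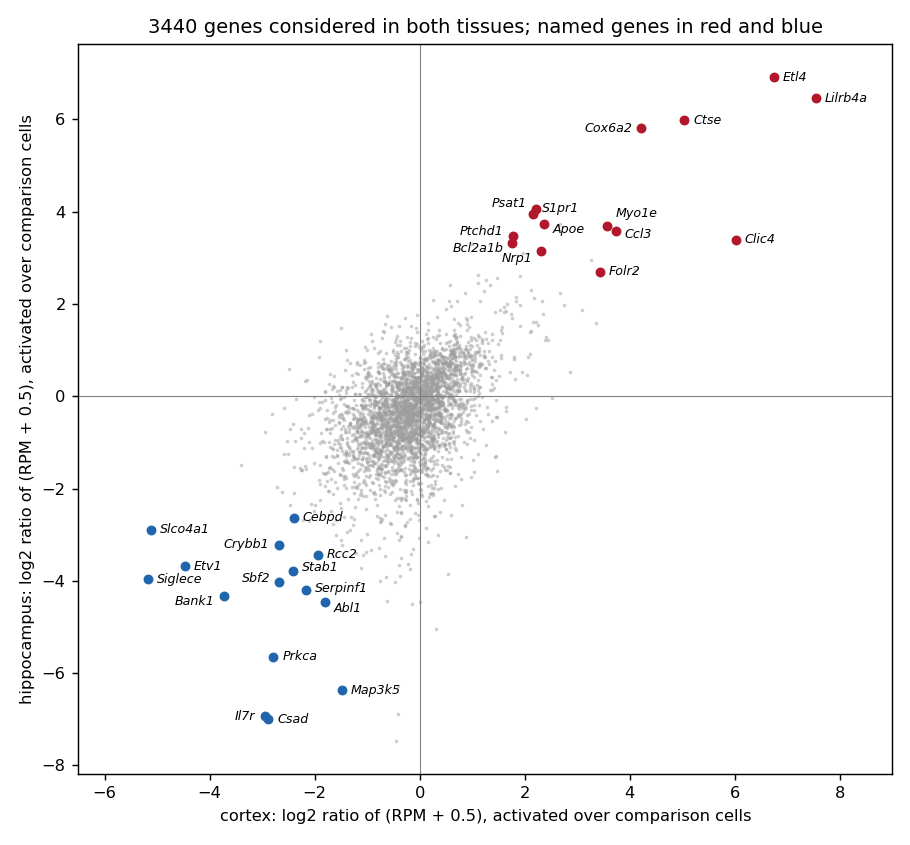
Each point is 1 of 3440 genes, with the log2 ratio of RPM plus 0.5 between activated and comparison cells in cortex (x axis) and hippocampus (y axis). The named genes called higher in both tissues (red) and those called lower in both (blue) lie in opposite corners, away from most genes.

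Apoe, the lipid carrier (chr7:19696109-19699188, minus strand, GENCODE), was read in all 70 cortical and 33 hippocampal activated cells. On the 4 cortical plates activated cells held 23735, 19299, 34954 and 41377 RPM of Apoe and comparison cells 4342, 4011, 6588 and 7554 RPM. On the hippocampal plates the activated cells held 83982, 61295, 50658 and 29720 RPM and the comparison cells 3050, 5582, 3260 and 3952 RPM. Activated cells lay above comparison cells on every plate without overlap, and the summed level was 5.13-fold higher in cortex (95% interval 5.11 to 5.14) and 13.3-fold higher in hippocampus (13.2 to 13.3). These intervals count reads alone and are far narrower than the spread of the plates. In the plot of single cells, the median activated cell held 22979 RPM in cortex and 39376 RPM in hippocampus, against 3371 and 2153 RPM in the comparison cells. Comparison cells were not free of Apoe, which was read in 86.6% of them in cortex and 85.3% in hippocampus.

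The plaque-associated genes outside the rule were called higher in most cases. Of the 37 considered in cortex 22 were called higher and 0 lower, with a median log2 ratio of 1.24, and of the 36 in hippocampus 21 were called higher and 0 lower, with a median of 1.27. Of all genes, 3.26% and 3.10% were called higher. This list was drawn up with such cells in mind, and it does not count as independent evidence of a direction. It shares genes with lists described below. Among these are Tyrobp, Ctsb, Ctsd, Cd63, Gusb, Npc2, Apoe, Nceh1, Fth1, Ccl3, Ccl6 and Hif1a, whose calls are counted in each list. Trem2, the lipid-sensing receptor, and Tyrobp, its signalling adaptor, were both read in nearly every microglial cell. Trem2 stood at 5103 against 2836 RPM in cortex, a log2 ratio of 0.85, and at 5428 against 2871 RPM in hippocampus, a log2 ratio of 0.92. Neither passed the 2-fold rule, but with median-of-ratios scaling the hippocampal ratio was 1.19 and without plate 3 it was 1.03. Its hippocampal plates overlapped with those of the comparison cells, at 3225 RPM against up to 3254 RPM. Tyrobp was 2.18-fold higher in cortex (2.17 to 2.20) and 2.43-fold higher in hippocampus (2.41 to 2.45), without overlap between plates. The rest of the Trem2 signalling list (Syk, Plcg2, Inpp5d and others) gave no further call, 2 genes of the list were called higher in hippocampus with that scaling, and the median of the list was -0.28 over 9 genes in cortex and -0.52 over 8 in hippocampus, below the median of all genes.

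Lysosomal genes were mostly above the comparison cells. Of 25 considered in each tissue 6 were called higher and 0 lower in each, with medians of 0.60 and 0.69, where 3.26% and 3.10% of all genes were called higher. With median-of-ratios scaling 8 were called higher in cortex and 11 in hippocampus. Several of the called genes, among them Ctsb, Ctsd, Cd63, Gusb and Npc2, are also on the plaque-associated list. The protease Ctsb stood at 9635, 8159, 11011 and 10592 RPM in activated cells on the cortical plates against 3437, 3009, 3774 and 3546 RPM in comparison cells. On the hippocampal plates it stood at 9035, 12369, 11181 and 8696 RPM against 2807, 3374, 2936 and 2781 RPM. The plates did not overlap in either tissue, and the sums differed 2.87-fold (2.85 to 2.88) and 3.63-fold (3.61 to 3.65).

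The protease Ctsd was 2.36-fold higher in cortex and 2.63-fold higher in hippocampus, and the tetraspanin Cd63 of late endosomes 3.56-fold and 4.45-fold. Both had plates that did not overlap. Hexa, a subunit of beta-hexosaminidase, was called higher in both tissues (log2 1.08 and 1.21). Gusb, the beta-glucuronidase, was called in hippocampus (1.44) with a value of 0.91 in cortex, and Atp6v1a, a subunit of the proton pump, in cortex (2.39) with 1.28 in hippocampus. Lgmn, the protease legumain, had log2 ratios of -0.40 and -0.41. Gpnmb and Atp6v0d2, often listed with activated microglia, had 0 reads in the activated cells, below a floor of 3 reads over the class (0.0669 RPM in cortex and 0.140 RPM in hippocampus).

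Other genes known from plaque-associated microglia were called in both tissues. Lyz2, the lysozyme, was 3.73-fold higher in cortex (3.70 to 3.76) and 6.12-fold higher in hippocampus (6.06 to 6.17). Its 4 plates held 3302, 3235, 3754 and 5354 RPM in cortical activated cells, where comparison cells had 1111, 1040, 880 and 1215 RPM. In hippocampus they held 4650, 5664, 4768 and 3897 RPM against 581, 1111, 635 and 742 RPM. All plates were apart. The leukocyte antigen Cd52 had log2 ratios of 1.44 and 1.84, the protease inhibitor Serpine2 1.56 and 1.49, and the oxygen-responsive transcription factor Hif1a 1.75 and 1.70. The tetraspanin Cd9 was called in cortex at 2.47-fold. In hippocampus it was 2.23-fold in the sum, with a log2 ratio of 0.99 in 1 lane, just short of the rule.

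**Figure D4:**
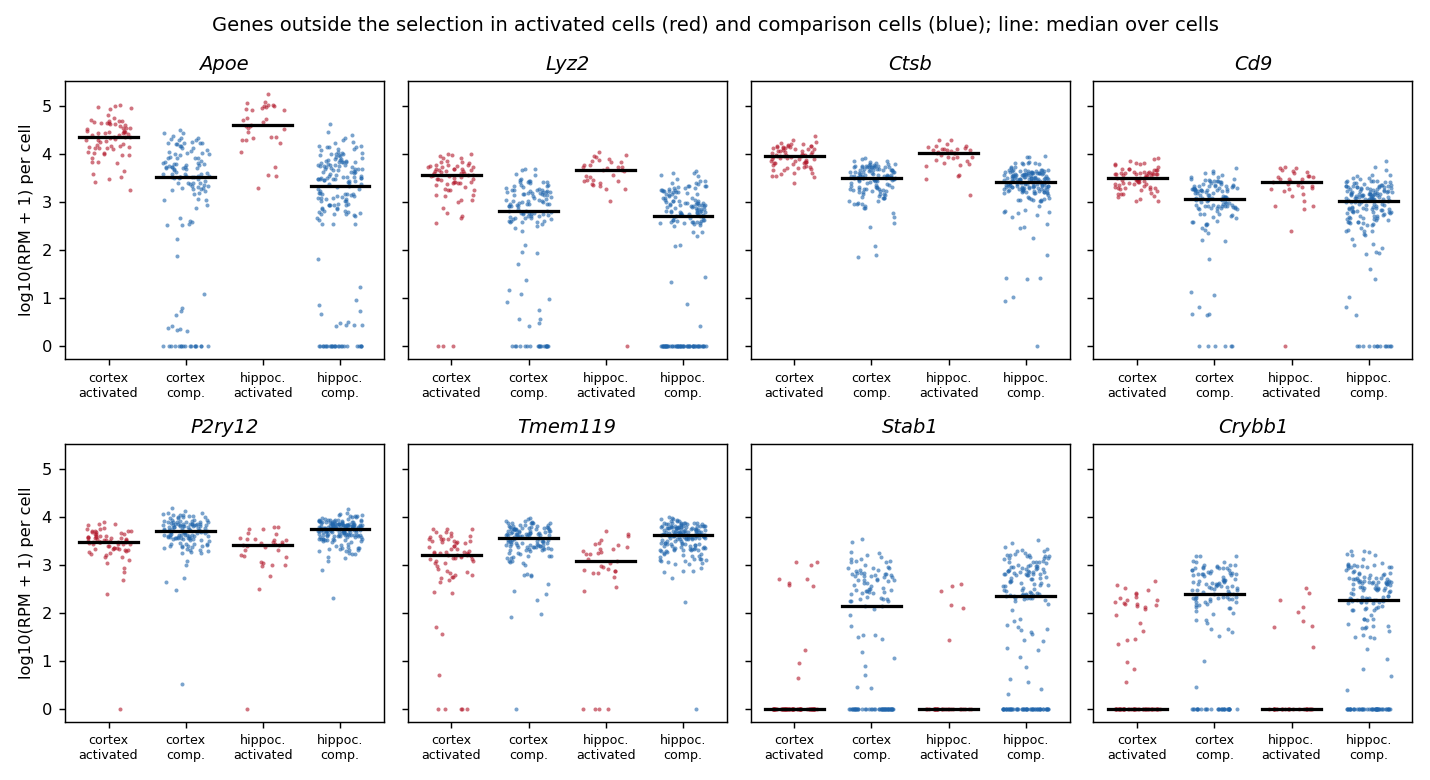
Each point is 1 cell, with log10 of RPM plus 1 on the y axis, for activated cells (red) and comparison cells (blue) of cortex and hippocampus; the line is the median over cells. Apoe, Lyz2, Ctsb and Cd9 medians are higher in activated cells, those of P2ry12 and Tmem119 lower, and those of Stab1 and Crybb1 are at 0 in activated cells only.

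The genes with the largest ratios in both tissues were nearly silent in the comparison cells. A ranking by ratio favours such genes, and a gene could enter through the activated cells alone. Their low level in comparison cells is therefore no separate result. Lilrb4a, an inhibitory immunoglobulin-like receptor, was read in 14 of 70 cortical activated cells at 92.9 RPM and in 0 comparison cells. Against the floor of 3 reads the ratio was at least 2350, a bound that counts reads and leaves out the spread between cells. In hippocampus Lilrb4a stood at 55.4 against 0.135 RPM (8 of 33 and 2 of 170 cells). Etl4, a gene of the Skt family known from disc development, was read in 30 cortical and 10 hippocampal activated cells at 85.8 and 61.1 RPM. Only 3 and 1 comparison cells had reads of it, and the hippocampal ratio of 5878 rests on 1 read (1053 to 2.32e+05). Ctse, an aspartic protease of endosomes, stood at 35.3 against 0.593 RPM in cortex and 52.8 against 0.343 RPM in hippocampus. Its cortical value rests on plate 3, with 6.04, 7.57, 103.9 and 8.62 RPM in activated cells on the plates, and without that plate the log2 ratio was 2.57 in place of 5.04. Cox6a2, the muscle-type subunit of cytochrome c oxidase, was read in 37 of 70 and 16 of 33 activated cells and in 3 comparison cells of each tissue.

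Cox6a2 held 86.2, 58.4, 93.9 and 76.8 RPM in activated cells on the cortical plates and 16.7, 76.1, 128.5 and 16.3 RPM on the hippocampal plates, against at most 11.02 and 1.87 RPM in comparison cells. The plates were apart in both tissues, and the ratios were 20.9 (18.6 to 23.7) and 85.6 (69.2 to 106.97). Myo1e, an unconventional myosin of membrane folds, was read in 54 cortical activated cells and 13 comparison cells, and in 18 and 15 in hippocampus. It was 11.99-fold higher in cortex (11.4 to 12.6) and 13.2-fold higher in hippocampus (12.5 to 13.8), again with plates apart.

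The remaining named genes included receptors and enzymes. S1pr1, a sphingosine 1-phosphate receptor, was 4.48-fold higher in cortex (61.4% against 20.5% of cells) and 15.7-fold in hippocampus (69.7% against 11.8%). The semaphorin and growth factor receptor Nrp1 was 5.02-fold and 9.03-fold higher, and Psat1, an enzyme of serine synthesis, 4.67-fold and 17.1-fold. Bcl2a1b, an inhibitor of cell death with near-identical paralogs that may share its reads, was 3.53-fold and 11.5-fold higher. Folr2, a folate receptor known from border macrophages, was 12.8-fold and 7.04-fold higher, in 16 of 70 and 12 of 33 activated cells, with the border macrophage values given above. Clic4 and Ptchd1 were called as well, and 3 of the 47 genes were of kinds that are counted and not named (predicted genes, pseudogenes and the like).

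Chemokines and cytokines went in both directions. Ccl3, an inflammatory chemokine, was read in 38 of 70 cortical and 20 of 33 hippocampal activated cells, against 7.87% and 5.29% of the comparison cells. It was 13.7-fold higher in cortex (12.9 to 14.7) and 12.6-fold higher in hippocampus (11.7 to 13.6). The cortical plates were apart, and 1 hippocampal plate of activated cells (16.3 RPM) lay within the range of the comparison plates (0 to 18.0 RPM). Cxcl16, a scavenger receptor and chemokine, was called higher in both tissues (log2 1.27 and 2.52), and Ccl6 in cortex (2.11, with 1.41 in hippocampus). Il18, an inflammasome cytokine, was called lower in cortex alone (-2.35, with -0.05 in hippocampus), and Tgfb1, a factor that microglia need for their identity, in hippocampus (-2.72, with -0.76 in cortex). The difference between the tissues in these pairs was not tested. In all, 3 of 7 genes of the list considered in cortex were called higher and 1 lower, and 2 and 1 of 7 in hippocampus. Of all genes, 3.26% and 3.10% were called higher and 5.41% and 11.4% lower. The 1 of 7 called lower in hippocampus is thus near the share of all genes.

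Of the antigen presentation genes, Cd74, the class II invariant chain, was called in both tissues. It was read in 49 of 70 cortical activated cells against 19.7% of comparison cells and in 20 of 33 against 12.9% in hippocampus. On the cortical plates it held 515, 894, 171.2 and 668 RPM in activated cells and 0, 137.1, 133.5 and 23.7 RPM in comparison cells. On the hippocampal plates it held 33.5, 875, 783 and 698 RPM against 364.6, 255.04, 90.97 and 29.7 RPM. The cortical plates were apart, the hippocampal ones overlapped, and 1 hippocampal activated cell held 38.4% of the reads of its class. No other class II gene was called, with 4 of the list considered in cortex and 3 in hippocampus. With Cd74 included, the median log2 ratio was 1.78 in cortex, where all 4 were above 0. In hippocampus the median was -0.24, with 2 of the 3 below 0. The difference between the tissues was not tested. None of 10 and 9 class I genes was called, with medians of 0.34 and 0.54, and with median-of-ratios scaling 2 of the 9 in hippocampus were called higher. Ifitm3 was the 1 interferon gene called, in hippocampus (1.28), of 2 and 4 considered, and with that scaling 1 was called in each tissue. Of all genes, 3.26% in cortex and 3.10% in hippocampus were called higher.

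Glycolysis and iron genes followed. Of 13 glycolysis genes considered in cortex 5 were called higher and 0 lower (median 1.19), and of 11 in hippocampus 3 and 0 (0.70), where 3.26% and 3.10% of all genes were called higher. With median-of-ratios scaling 9 and 4 were called higher. Gapdh was 2.60-fold and 2.32-fold higher and Aldoa 2.61-fold and 2.56-fold, both with plates apart, and the lactate exporter Slc16a3 was called in cortex (log2 1.68). The respiratory chain list had medians of 0.14 over 15 genes and 0.55 over 13, with 0 and 1 called higher, the latter Ndufa1 (2.29), and 1 and 2 with that scaling. Of the iron genes, the ferritin heavy chain Fth1, also on the plaque-associated list, was 2.05-fold and 2.41-fold higher with plates apart. The iron exporter Slc40a1 was called lower in both tissues, 2.66-fold and 3.96-fold, although 1 cortical plate overlapped with the comparison plates. On hippocampal plate 1 it went the other way. Activated cells there held 469 RPM, above all hippocampal comparison plates (306.6 to 370.8 RPM). Slc40a1 was the 1 of 7 iron genes called lower in each tissue, where 5.41% and 11.4% of all genes were. Fth1 was called in both tissues, and the iron importer Slc11a2 and the heme oxygenase Hmox1 in cortex (2.43 and 1.22), with 1.22 and 0.97 in hippocampus. With median-of-ratios scaling 3 of 7 iron genes were called higher in each tissue, where 4.31% and 5.55% of all genes were.

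Some lipid genes were called higher and 0 were called lower. Of 12 considered in cortex 3 were called higher (3.26% of all genes), namely Apoe, Nceh1, a cholesterol ester hydrolase (log2 1.14 in cortex and 2.06 in hippocampus), and Npc2, a cholesterol carrier of lysosomes (1.04, with 0.92 in hippocampus). In hippocampus 2 of 11 were called higher (3.10% of all genes), Apoe and Nceh1, and with median-of-ratios scaling 3. Apoe, Nceh1 and Npc2 are also on the plaque-associated list, so these calls are not separate from it. The complement list had 0 of 7 and 1 of 8 called, where 3.26% and 3.10% of all genes were called higher. The 1 was the C3a receptor C3ar1 (1.66, with 0.89 in cortex), and with median-of-ratios scaling 1 was called in each tissue. C1qa had ratios of 0.09 and 0.28. In the list of 12 microglial identity genes none was called in either tissue, with medians of -0.18 and -0.16, which under the other scaling were -0.05 and 0.11. Of 4 immediate early and dissociation genes considered in each tissue none was called.

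Homeostatic genes, the set that marks resting microglia, were lower. Of 21 considered in each tissue 0 were called higher in either, 5 were called lower in cortex and 7 in hippocampus, against 5.41% and 11.4% of all genes, and the medians were -0.72 and -0.79, below the medians of all genes. With median-of-ratios scaling 4 were called lower in each tissue. P2ry12, a purine receptor for process movement, held 3183, 2732, 3440 and 3493 RPM in cortical activated cells on the 4 plates against 4700, 6027, 4808 and 6317 RPM. In hippocampus it held 3057, 2370, 2231 and 3438 RPM against 5922, 5193, 5657 and 5985 RPM. The plates were apart in both tissues, the sums were 1.72-fold lower in cortex, which did not pass the rule, and 2.20-fold lower in hippocampus, which did. The hippocampal log2 ratio of P2ry12 was -1.14, and with median-of-ratios scaling -0.87, under the rule. Tmem119, a membrane protein that marks microglia, had log2 ratios of -1.03 in cortex, where 1 lane fell short of the rule, and -1.56 in hippocampus, where it was called.

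Some lowered genes were ones that most comparison cells expressed. Crybb1, a crystallin, was read in 27 of 70 cortical activated cells against 77.2% of comparison cells and in 9 of 33 hippocampal ones against 72.4%. It was 6.49-fold lower in cortex (6.23 to 6.76) and 9.39-fold lower in hippocampus (8.74 to 10.1). On the cortical plates it held 95.6, 85.1, 18.6 and 36.03 RPM in activated cells against 325.98, 280.4, 375.2 and 422 RPM, and on the hippocampal plates 2.72, 14.5, 64.99 and 32.3 RPM against 202.9, 324.7, 438 and 354.4 RPM. The plates were apart in both tissues. The transcription factor Sall1, which holds microglial identity, had log2 ratios of -0.98 and -1.55 and was called in hippocampus. The fractalkine receptor Cx3cr1 had ratios of -0.47 and -0.79 and was not called. Csf1r and Cst3 differed by at most 0.36 on the log2 scale in either tissue.

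Other genes called lower in both tissues ranged widely in how much of their level was left. Siglece, an inhibitory sialic acid receptor, was read in 2 of 70 cortical and 1 of 33 hippocampal activated cells and in 26% and 28.2% of the comparison cells, and was 47.04-fold and 17.2-fold lower. Bank1, a scaffold of B cell receptor signalling, was 13.8-fold (12.6 to 15.1) and 21.6-fold lower (18.1 to 25.96), where B cell markers summed to 12.3 and 12.6 RPM in activated and 16.6 and 26.4 RPM in comparison cells. Il7r, the interleukin 7 receptor, was 8.19-fold lower in cortex and had 0 reads in 33 hippocampal activated cells, at least 434-fold lower than in comparison cells, where 41 of 170 cells had reads.

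Stab1, a scavenger receptor, was the named gene read in most comparison cells after Crybb1, 61.4% in cortex and 68.2% in hippocampus. It held 21.4, 114.3, 85.9 and 49.9 RPM in cortical activated cells on the plates against 454, 196.3, 304.8 and 512 RPM, and 134.3, 3.21, 26.04 and 40.9 RPM in hippocampal ones against 538, 505, 491 and 373.3 RPM. The plates were apart, and it was 5.35-fold (5.15 to 5.55) and 14.03-fold lower (13.04 to 15.1). The kinase genes Prkca, Map3k5 and Abl1, the transcription factors Etv1 and Cebpd, and Serpinf1, Sbf2, Rcc2, Slco4a1 and Csad were the others of the 15. Of these, Prkca and Map3k5 had 0 reads in hippocampal activated cells. In cortex Map3k5 had a log2 ratio of -1.48 that turned on single plates, -0.45 without plate 4 and -5.04 without plate 3, where activated cells held 47.9 RPM. Abl1 (-1.80), Rcc2 (-1.94) and Serpinf1 (-2.17) kept more of their cortical level than Etv1 (-4.47) and Slco4a1 (-5.13). Of the 30 genes named in both tissues by size, leaving out 1 plate moved the ratio over 1.5 times for 13 in cortex and 15 in hippocampus, and Map3k5 in cortex alone then fell under 2-fold in the sum. The pattern receptor Tlr4 and the transcription factor Maf, both on fixed lists, were called lower in hippocampus (-3.73 and -2.09) with -1.11 and -1.25 in cortex.

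Levels were also read by the number of activation genes, since cells with 1 or 2 were in neither class. In cortex, Ctsb stood at 3471, 4142, 8666 and 10812 RPM in cells with 0, 1 to 2, 3 to 4 and 5 to 10 of the genes. Over the same cells, Cd63 went from 360 over 502 and 940 to 1513 RPM, Myo1e from 25.8 over 53.4 and 231.7 to 361.3 RPM, and Ccl3 from 13.6 over 47.5 and 130 to 225.7 RPM. All of them were higher in each next class. Apoe was not: it stood at 5955, 10412, 35233 and 27359 RPM, with its peak in cells with 3 to 4 of the genes.

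The lowered genes differed in where they dropped. Crybb1 in cortex went from 360.5 over 225.5 to 55.99 RPM in cells with 3 to 4 genes and was at 55.2 RPM with 5 to 10, while Stab1 was at 366.4, 341.7, 141.7 and 18.96 RPM. P2ry12 was at 5562, 5064, 3046 and 3363 RPM, and Tmem119 at 3988, 4387, 2207 and 1780 RPM. In hippocampus, cells with 0, 1 to 2 and 3 to 4 of the genes held 4140, 7350 and 54365 RPM of Apoe, 3008, 3993 and 10930 RPM of Ctsb, and 4387, 4322 and 1474 RPM of Tmem119. Cells with 1 or 2 of the genes thus stood near the comparison cells for P2ry12 and Tmem119 and between the classes for Crybb1. Median reads per cell were 611164, 607866, 646127 and 633112 in the cortical classes.

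**Figure D5:**
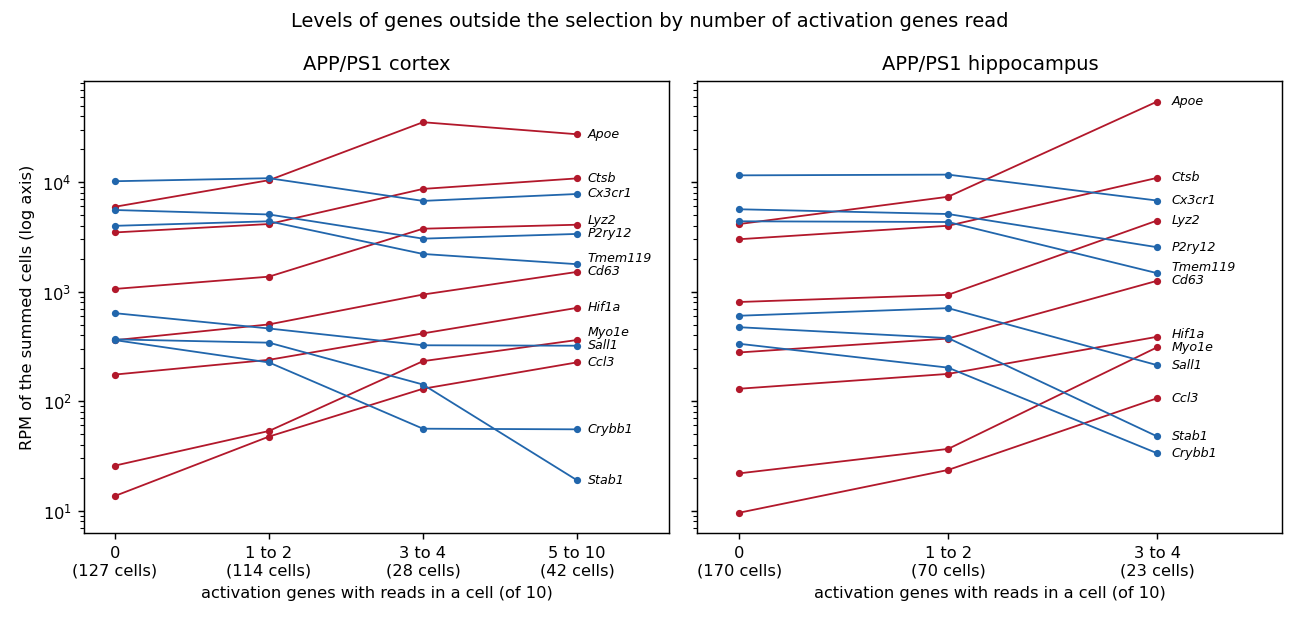
RPM of genes outside the selection, on a log axis, by the number of activation genes with reads in a cell, for cortex (4 classes) and hippocampus (3 classes). Genes in red are higher and genes in blue lower in cells with 3 or more of the genes than in cells with 0, and Apoe in cortex peaks at 3 to 4 genes.

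Several leading genes had close levels in the activated cells of both tissues. Hippocampal over cortical activated cells gave log2 ratios of 0.09 for Trem2, 0.04 for Tyrobp, 0.10 for Ctsd and 0.14 for Ctsb. Apoe was higher in hippocampus by 0.85 on the log2 scale, with log2 ratios of 1.65 and 0.23 in the 2 lanes, while in comparison cells its log2 ratio was -0.52. The hippocampal plates of activated cells (29720 to 83982 RPM) overlapped with the cortical ones (19299 to 41377 RPM). The activated classes also differed in make-up: 42 of 70 cortical and 10 of 33 hippocampal cells had reads of at least 5 of the genes. The part of this in the ratios between tissues was not tested.

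Of 4050 genes considered between the activated cells of the tissues, 2.37% were called higher in hippocampus and 6.86% lower, and 2.66 to 10.3% and 9.47 to 16.1% with 1 plate left out. In the larger classes of comparison cells the same rule called 0.569% of 3515 genes higher and 0.370% lower. The named genes rested on few cells. C4b, a complement factor, was read in 7 of 33 hippocampal activated cells at 24.3 RPM and in 0 of 70 cortical ones. By the floor of 3 reads it was at least 362.4-fold higher, a bound that leaves out the spread between cells. In the comparison cells of hippocampus and cortex the level of C4b was 13.6 and 16.3 RPM. Apba1, an adaptor that binds the amyloid precursor protein, was 28.99-fold higher (22.6 to 37.7), with 55.7% of its hippocampal reads in 1 cell. Ints1, Cdk12, Dhx29, Gbf1, Cbx1, Fpgt, Fryl and Cmip were between 5.76-fold and 11.2-fold higher, each read in 7 to 11 hippocampal activated cells.

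Among those lower, the prion protein gene Prnp was read in 16 of 70 cortical activated cells at 40.4 RPM and in 0 of 33 hippocampal ones. By the floor of 3 reads Prnp was at least 289.1-fold lower, again without the spread between cells. In comparison cells it was higher in hippocampus, at 9.46 against 2.53 RPM. Gpatch2, Cradd and Fem1c also had 0 reads in hippocampal activated cells against 14, 15 and 14 cortical cells with reads. Mib2, Pi4ka, Actr10, Adsl, Plekhm3 and Cep68 were read in 1 to 3 hippocampal cells each. With only genes read in at least 50% of cells of 1 tissue considered, a limit chosen after the data had been seen, 4 genes were higher in hippocampus and 15 lower. The 4 were Prkcb, a kinase of calcium signalling (log2 2.32), Ganab, an enzyme of glycoprotein folding (1.51), the copper chaperone Cox17 (1.49) and Stard3nl, a protein of endosome contacts (1.44). The lower ones included Acap2 (-2.10), Cnot2 (-1.99) and the myeloid tyrosine kinase Fes (-1.93). These genes were chosen after their values had been seen.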

How the data were processed

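Whole-number read counts per gene and cell (29474 genes, 1878 cells) are used as the authors deposited them; per the labels' protocols the cDNA was made with a modified SmartSeq2 method, which has no molecular identifiers. The submitters' processing notes name, without roles, mm10 as the build and Seurat 2.3.1, featureCounts 1.5.1 and STAR 2.5.2 as tools. The handling of strand and overlaps was not given in the sources used here. Overlapping genes and paralogs can therefore share reads. The 1713 cells with a read total in the labels were used, and it equalled the table's own in all 1713. Each group is 1 sample, no doublet caller was run, and 0 count columns lacked a well.

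For each class of cells, counts were added up with Python 3.11.15, NumPy 2.4.6, pandas 2.3.3 and SciPy 1.17.1 and divided by the class total to give RPM. Ratios carry exact 95% intervals for 2 counts and shares Clopper-Pearson intervals, and both cover counting error alone. Since reads carry no molecular identifiers, the ratio intervals treat copies of the same molecule as separate reads and are too narrow. The steps were tested on simulated data, in which all cells of a class were drawn from the same profile. Those data held no spread between cells, plates or lanes, so the test gives no rate of false calls for the real data. Named are the 15 genes per direction with the largest mean log2 ratio called in both tissues, the 10 per direction between tissues, and list members as examples; predicted, ribosomal protein and mitochondrial genes are counted and not named, and the 10 activation genes are left out of counts. The cells and the gene lists were chosen with earlier results of these data known. Alternatives covered thinning, the read minimum, the number of activation genes, scaling, filters, single cells and plates. Gene coordinates are from GENCODE on GRCm38 and promoter windows from RefSeq on GRCm38.p6. The lists of cholesterol synthesis, phagocytic receptors, growth factors, transcription factors and cell cycle genes are described under the other observations. Some genes that the rule names or the lists hold are not reported here. APP/PS1 mice of 18 months were not analysed here.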

Additional observations from a re-analysis of the deposited data

Results flagged for a closer look

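Abhd2, a lipid hydrolase, had a log2 ratio between activated and comparison cells of -1.91 in cortex (8.81 against 34.4 RPM) and 1.20 in hippocampus (42.4 against 18.2 RPM). It was taken up because it passed the 2-fold rule in opposite directions in the tissues, in both lanes of each, and it was chosen after its values had been seen. The difference was not tested, since each tissue is 1 sample. It was read in 32 of 70 cortical and 11 of 33 hippocampal activated cells. The plates of the 2 classes overlapped in both tissues. On cortical plate 2 activated cells held 30.5 RPM of Abhd2 against 28.1 RPM in comparison cells. On hippocampal plate 4 the direction was reversed, with 0.593 against 22.1 RPM.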

How the results depend on the processing

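No paired analysis was possible because each tissue is 1 sample without a test, and replicate numbers only name wells. Of 180 values of 12 shares and medians under the alternatives, 0 reversed and 51 moved, and of 1616 values of named gene ratios 0 reversed and 73 moved. The cause was not tested unless given.

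Filters set the share of genes called. With at least 1 RPM and no filter on cells, 4.97% were higher and 10.9% lower of 12728 genes in cortex, 3.15% and 21.6% of 12469 in hippocampus and 3.54% and 13.4% of 11937 between tissues. With 2-fold in the sum alone the shares were 6.30% and 12.1%, 6.77% and 21.4%, and 6.99% and 14.4%. With genes read in at least 50% of cells of 1 class, a limit chosen after the data had been seen, they were 4.21% and 3.65% of 1069, 4.77% and 7.25% of 1007, and 0.370% and 1.39% of 1081. Without the cell with most reads of each gene, 9.06% were lower in cortex, 1.94% higher and 25.7% lower in hippocampus, and 1.61% and 15.7% between tissues. With at least 5 activation genes, which leaves 10 hippocampal cells and fewer lanes that meet the cell minimum, 15.98% and 30.9% of 4718 were called in hippocampus and 19.2% and 26.8% of 4788 between tissues. Median-of-ratios scaling gave 5.55% and 7.21% in hippocampus. Leaving out 1 titled plate gave 3.51 to 4.00% higher and 6.32 to 6.62% lower in cortex, 3.78 to 8.95% and 14.2 to 21.1% in hippocampus, and 2.66 to 10.3% and 9.47 to 16.1% between tissues. Without plate 1, 2 or 3 a hippocampal lane keeps fewer than 10 activated cells and its requirement drops out; without plate 4 both lanes stay.

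The plaque-associated median in cortex was 1.47 with at least 5 activation genes and 1.48 with 1 RPM and no filter on cells, and in hippocampus 1.54 with median-of-ratios scaling. The homeostatic median in cortex was -0.62 after thinning, -0.60 as a mean of per-cell RPM, -0.59 with median-of-ratios scaling and -0.55 with the 50% limit, and in hippocampus -0.52 with median-of-ratios scaling. Without 1 plate these medians were 1.19 to 1.29 and 1.30 to 1.36, and -0.78 to -0.65 and -0.91 to -0.69. The share of activated cells was 13.5% in cortex with at least 5 genes, and 7.33% and 3.66% in hippocampus with at least 4 and 5; without 1 plate it was 21.7 to 23.2% and 10.2 to 13.8%.

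With 33 hippocampal cells of 137041 reads or more, a gene read in few cells can be missed, and 0 reads means under the floor of 0.140 RPM for the class.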

Other observations

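Lists outside the main account gave few calls. Of 17 transcription factors considered in cortex 2 were called higher, Hif1a and Bhlhe40, a circadian and immune repressor (log2 3.40, read in 15 of 70 activated cells and 1 comparison cell), and 0 lower, and of 16 in hippocampus 1 was called higher and 2 lower, a share near the 11.4% of all hippocampal genes called lower. Among 15 phagocytic and pattern receptors in each tissue, Colec12, a scavenger receptor, was called higher in cortex (1.25) and Stab1 lower, and in hippocampus 0 were called higher and 2 lower, again near that share, and with median-of-ratios scaling 1 was called higher there. The efferocytosis receptor Mertk had values of -0.33 and -0.76. Their median in cortex, -0.02, was 0.11 under median-of-ratios scaling. Growth and secreted factors outside the rule gave 0 calls of 7 in cortex and Tgfb1 of 7 in hippocampus. In cholesterol synthesis, Msmo1 and Srebf2 were called higher in hippocampus (1.62 and 1.25), the 2 genes considered there, and the 1 considered in cortex was not called. A gene could be considered through the class where it was high. Srebf2 held at most 15.2 RPM on the hippocampal comparison plates, and on plate 4 its activated cells held 0 RPM. Over the 17 genes of the list with reads in hippocampus, the median log2 ratio was 0.08. None of 2 cell cycle genes considered in each tissue was called. Over all genes, 3.26% in cortex and 3.10% in hippocampus were called higher.

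Ch25h and Baiap2l2, of the plaque-associated list, had no reads in the comparison cells and missed the limits for a call in at least 1 tissue. Ch25h, which makes 25-hydroxycholesterol, was read in 11 of 70 cortical and 5 of 33 hippocampal activated cells (71.4 and 55.6 RPM) and in 0 comparison cells of either tissue. Baiap2l2, an actin-bundling adaptor, was read in 32 of 70 and 9 of 33 activated cells and in 0 comparison cells, and was called in cortex; at 16.5 RPM in hippocampus it was under the level considered.

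In the RefSeq windows, GAGGAA was in 26.1% of 46 windows of genes called higher in both tissues and in 21.7% of 60 windows of genes called lower in both, against 23.3% of all windows.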
